A study of Mus musculus with 24 samples.

Results

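The 10 genes described here are textbook targets of PPARalpha, the fatty-acid-sensing nuclear receptor of the liver: Cyp4a10, Cyp4a14, Acot1, Acot2, Acot3, Ehhadh, Acaa1b, Vnn1, Cd36 and Pdk4. They were taken by name, and every probe set annotated to any of them was read: 15 of the 22690 probe sets in the deposited table. Livers came from 24 mice, with 1 Affymetrix array per mouse, in 12 groups of 2. Wild-type mice had their own CAR (constitutive androstane receptor, gene Nr1i3), which knockout mice (mCAR-/-) lacked. Human CAR mice were mCAR-/- animals with a transgene for human CAR under the albumin promoter of the mouse, and so aimed at hepatocytes, bred in over 2 cycles. All mice were of C57BL/6x129Sv strain, were labelled female and ate normal chow. Each genotype received the vehicle corn oil alone or 1 of 3 ligands. Phenobarbital was given daily at 100 mg/kg and CITCO daily at 30 mg/kg, whereas TCPOBOP was given once, at 3 mg/kg on the first day, with vehicle on the later days. Injections were intraperitoneal over 3 days at 24 h intervals, and livers were taken 6 h after the last. By the labels, TCPOBOP is a ligand of mouse CAR, CITCO a ligand of human CAR, and phenobarbital moves both receptors into the nucleus. The sources used here give no ages, litters or feeding state at harvest, and p-values measure the spread between these mice only.

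PPARalpha pairs with RXR on DNA and is activated by fatty acids, for example in fasting, when the liver switches to burning fat. Its classical targets carry fatty acids into cells, split their coenzyme A esters, shorten them in peroxisomes and hydroxylate them at the far end in the microsomes. CAR is known mainly for inducing drug-metabolising enzymes such as Cyp2b10.

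Promoters of the members were read to show what they have in common beside their regulation. RefSeq entries were held for 7 of the 10 members, with none for Cyp4a10, Cyp4a14 and Vnn1. The 250 bases before each gene start were searched on both strands for an idealised PPARalpha site, the half-site AGGTCA repeated in the same direction after 1 base of any kind and scored over its 12 fixed letters. An exact match was found in 0 of the 7 member windows and in 11 of 32851 windows of the same length (0.0335%). Cd36 had the best match of the members, with 10 of 12 letters, a score reached by 3.24% of all windows. Acot2 matched 9 letters, as did 21.3% of windows or better, and the other 5 members matched 8, which was also the median of all windows. 4 windows are shown in the gene's own direction on GRCm38.p6, those of Acaa1b, Acot3 and Ehhadh because these genes passed tests given further on, and that of Cd36 for its match. Capitals mark the best match in each.
Acaa1b, chr9:119157094-119157343, minus strand: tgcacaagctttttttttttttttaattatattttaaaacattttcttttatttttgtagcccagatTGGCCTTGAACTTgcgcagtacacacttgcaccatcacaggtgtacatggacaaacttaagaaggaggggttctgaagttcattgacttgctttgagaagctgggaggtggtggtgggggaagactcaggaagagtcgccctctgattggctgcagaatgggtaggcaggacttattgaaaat
Acot3, chr12:84051894-84052143, plus strand: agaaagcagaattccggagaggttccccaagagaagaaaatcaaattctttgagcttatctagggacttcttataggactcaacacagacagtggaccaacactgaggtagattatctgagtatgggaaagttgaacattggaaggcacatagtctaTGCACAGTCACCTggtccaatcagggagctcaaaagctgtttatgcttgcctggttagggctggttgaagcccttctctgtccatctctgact
Ehhadh, chr16:21787835-21788084, minus strand: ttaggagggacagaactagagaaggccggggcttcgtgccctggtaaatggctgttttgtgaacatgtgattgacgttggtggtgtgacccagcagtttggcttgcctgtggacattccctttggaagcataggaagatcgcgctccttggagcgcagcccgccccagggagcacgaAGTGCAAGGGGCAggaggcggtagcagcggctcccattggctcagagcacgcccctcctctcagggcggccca
Cd36, chr5:17835897-17836146, minus strand: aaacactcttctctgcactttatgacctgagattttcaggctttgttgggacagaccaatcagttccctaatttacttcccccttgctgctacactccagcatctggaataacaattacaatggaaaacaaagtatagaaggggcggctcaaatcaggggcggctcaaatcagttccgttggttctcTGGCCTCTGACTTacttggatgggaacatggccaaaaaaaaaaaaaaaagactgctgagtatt
The capitals lie opposite to the gene's direction in Acaa1b, Acot3 and Cd36 and along it in Ehhadh. A match of letters is a description and says nothing of binding.

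Values are log2 expression as deposited, so a difference of 1 is a 2-fold difference. Changes are log2 differences with the standard error (SE) of 1 limma fit over all 24 arrays. Adjusted p is Benjamini-Hochberg over the 9167 genes tested, and a gene is called when it is under 0.05. A gene was tested when its brightest probe set lay above the dim limit, the 40th percentile of the array (4.93 to 5.08), on at least 2 arrays. Of the members, 7 were tested this way. Cyp4a10 has only a probe set shared with Cyp4a31, and this set was tested in a separate fit over 14763 probe sets, named beside its values. A set annotated to Cyp4a31 alone lay below the limit on all 24 arrays, between 2.72 and 4.63. Acot2's own set (3.62 to 4.37) was below the limit on all 24 arrays and Pdk4's on 23. Acot1 passed the filter on 4 arrays, of which 3 were knockout and 1 human CAR, so all its wild-type values are dim. Since the filter let Acot1 in through the genotypes where it lay higher, its differences from wild type are given as values and not counted as results. Differences among dim values are compressed. Fewer cells of a type and less RNA per cell cannot be told apart in whole liver.

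As a check of the labels, Nr1i3 group means were 6.94 to 7.95 in wild type and 5.10 to 5.35 in the other genotypes, although the place of its probe set relative to the deleted part is not given. All 12 hepatocyte markers were above the limit on every array. Of the female marker Xist, 2 of 3 probe sets were below the limit on all arrays and the third lay between 4.72 and 5.51, above it on 20. The male-biased Cyp4a12a was above it on all arrays, the Y-linked Eif2s3y on 8 and the Y-linked Uty and Kdm5d on 0. Of the other sex-biased liver genes, Cyp2d9, Cyp7b1, Elovl3, Slco1a1 and Cyp17a1 were above it on 24 arrays and Hsd3b5 on 21. Cyp2b13 was above it on 20, Cyp2b9 on 7 and Sult3a1 on 0. These probe sets did not settle the labelled sex. Arrays of knockout phenobarbital replicate 2 and human CAR phenobarbital replicate 1 stood apart from the others, with a first principal component (21.7% of variance) of -22.3 and -37.4 against -8.60 to 11.6. Members whose call changes without them are given with both values.

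The members varied widely between mice. The SD between group means was 2.05 for Cyp4a14, 1.70 for the Cyp4a10 probe set and 0.87 for Vnn1, against a median of 0.13 over all genes. The SD within groups was also large, at 0.90, 0.63 and 0.62 against a median of 0.14. Averaged after standardising each gene, the members were lowest in wild type on TCPOBOP (-1.46) and highest in knockout on TCPOBOP (1.64), with the other 10 groups between -0.62 and 0.59. Wild type on TCPOBOP was the lowest of the 12 groups for Cyp4a10, Cyp4a14, Acot1, Ehhadh, Acaa1b and Vnn1. Knockout on TCPOBOP was the highest for Cyp4a14, Acot1, Acot2, Acot3, Ehhadh, Acaa1b, Vnn1 and Cd36.

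**Figure D1:**
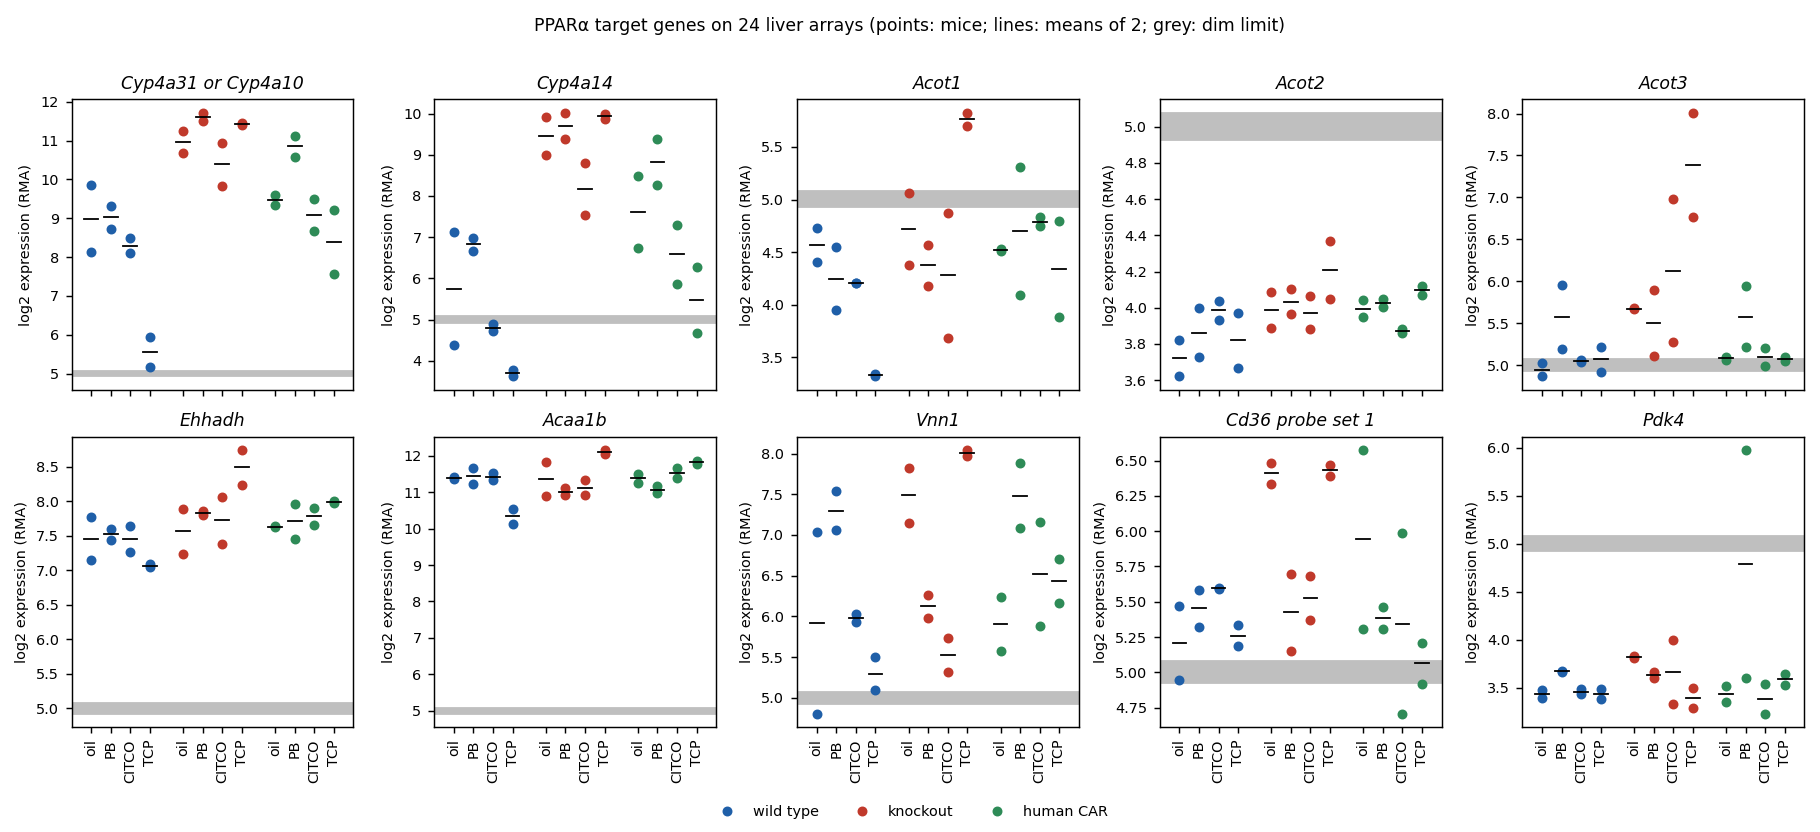
Log2 expression (vertical axis) of the 10 members by genotype and treatment (horizontal axis; PB, phenobarbital; TCP, TCPOBOP); points are mice, black lines means of 2 and the grey band the dim limit. The wild-type TCPOBOP arrays of the Cyp4a10 probe set lie at 5.94 and 5.17, below the other 22 arrays, and the knockout arrays of Cyp4a14 lie from 7.53 to 10.02, above all 8 wild-type arrays.

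TCPOBOP in wild-type mice lowered the Cyp4a10 probe set and Acaa1b. Cyp4a10 and Cyp4a14 are microsomal enzymes that hydroxylate the far end of fatty acids, and both are among the most inducible PPARalpha targets. The Cyp4a10 probe set read 8.12 and 9.85 on corn oil and 5.94 and 5.17 on TCPOBOP, without overlap. It fell by 3.43 (SE 0.54, 10.8-fold, adjusted p = 0.000823, probe set fit). The call held in 4 of 4 fits with 1 array left out, with a change of -2.56 without corn oil replicate 2 and -4.29 without corn oil replicate 1. Cyp4a14 read 4.38 and 7.12 on corn oil and 3.77 and 3.62 on TCPOBOP, both below the dim limit. Its change of -2.05 (SE 0.77, adjusted p = 0.142) did not pass, and the corn oil mice differed from each other by 2.73. Without wild-type corn oil replicate 1 it was -3.42 and passed (adjusted p = 0.0235).

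The acyl-CoA thioesterases release free fatty acids from coenzyme A, Acot1 in the cytosol, Acot2 in mitochondria and Acot3 in peroxisomes. Acot1 read 4.41 and 4.73 on corn oil and 3.32 and 3.34 on TCPOBOP, so the groups did not overlap, but all 4 values were dim. Its change was -1.24 (SE 0.39, adjusted p = 0.0761). It passed without the 2 arrays that stood apart (adjusted p = 0.027). A probe set shared by Acot2 and Acot1, which was brighter, read 6.41 and 6.93 against 6.45 and 5.66, with a change of -0.61 (adjusted p = 0.364, probe set fit). Acot3 lay at 4.87 and 5.02 on corn oil and 5.22 and 4.92 on TCPOBOP, a change of 0.13.

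In the peroxisome, Ehhadh catalyses the middle steps of beta-oxidation and Acaa1b, a thiolase, the last. Acaa1b is a bright gene here. It read 11.42 and 11.36 on corn oil and 10.55 and 10.13 on TCPOBOP, lower in both mice. It fell by 1.05 (SE 0.24, 2.07-fold, adjusted p = 0.0137). Both probe sets shared with its neighbour Acaa1a also fell in the probe set fit, by 0.90 (adjusted p = 0.009) and 1.02 (adjusted p = 0.0154). The Acaa1b call was lost without corn oil replicate 1 (adjusted p = 0.0917), corn oil replicate 2 (0.0732) or TCPOBOP replicate 2 (0.15). Ehhadh read 7.15 and 7.77 against 7.09 and 7.05, a change of -0.39 (adjusted p = 0.429).

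The remaining members were not called in this comparison. Vnn1, a pantetheinase that recycles the coenzyme A precursor, read 4.81 and 7.04 on corn oil and 5.10 and 5.50 on TCPOBOP, so the treated mice lay inside the spread of the controls. Cd36, which takes up fatty acids, read 4.94 and 5.47 against 5.19 and 5.33. Pdk4, the kinase that shuts off pyruvate dehydrogenase in fasting, was dim on all 4 arrays. Of the 10 members 6 were lower, with a median change of -0.51 against 0.03 over 12393 genes. In the gene fit 1 member was called lower, beside 2.80% of all genes called lower (257). In the probe set fit 2.61% were called lower.

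Other PPARalpha targets were followed as a list of 75 genes, of which 63 were tested. TCPOBOP in wild type lowered 23 of them and raised 1, the fatty acid desaturase Fads1 (0.88), with a median of -0.51 against 0.01 over all tested genes. The largest falls were Cyp8b1, the bile acid 12-alpha-hydroxylase, by 2.15; Retsat, a retinol saturase, by 2.11; Nudt7, a peroxisomal coenzyme A hydrolase, by 1.75; and Mgll, which cleaves monoglycerides, by 1.59. The count was 12 without wild-type corn oil replicate 2 or TCPOBOP replicate 2, 15 without TCPOBOP replicate 1 and 20 without corn oil replicate 1. Of 19 tested relatives of the members, 5 fell and 1 rose. Among them Cyp4f14 fell by 1.59, Scarb1, a relative of Cd36, by 0.93 and Cyp4v3 by 0.92, while Cyp4f15 rose by 1.03. Of 17 tested genes that answer fasting and feeding, 1 fell, Cpt1a, the gate of mitochondrial fatty acid oxidation, by 1.16. Of 19 tested genes for the receptor and its partners, 1 rose, the corepressor Nrip1 (0.69, adjusted p = 0.0126). Of all genes 3.34% were called higher and 2.80% lower here, so 1 call in a list of this size is near the background. Ppara itself read 8.67 and 8.79 on corn oil and 7.46 and 7.43 on TCPOBOP, a change of -1.28 (SE 0.39, adjusted p = 0.0616). Rxra changed by -0.48 (adjusted p = 0.0616). Cyp2b10, the standard CAR target, rose by 7.42 (SE 0.38, adjusted p = 9.69e-09).

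In knockout mice, which have no mouse CAR for TCPOBOP to bind, 9 of the 10 members lay higher on TCPOBOP than on corn oil, but none passed. The count called was 0 of the 7 tested, beside 0.0764% of all genes (7, or 23 without the 2 arrays that stood apart), and at an unadjusted p under 0.05 limma gave 4 members higher and 0 lower. The Cyp4a10 probe set was not called either, in the probe set fit. Acot3 read 5.67 and 5.68 on corn oil and 8.01 and 6.76 on TCPOBOP, without overlap, a change of 1.71 (SE 0.45, adjusted p = 0.231). Ehhadh read 7.24 and 7.89 against 8.24 and 8.75, also without overlap (0.93, SE 0.26, adjusted p = 0.26). Acot1 changed by 1.04 (adjusted p = 0.368), from 4.38 and 5.06 to 5.83 and 5.70. Acaa1b read 10.89 and 11.84 on corn oil and 12.04 and 12.16 on TCPOBOP, its highest values of the series (0.74, adjusted p = 0.321). The hydroxylases started high and differed little: the Cyp4a10 probe set read 10.69 and 11.24 against 11.46 and 11.40, and Cyp4a14 9.0 and 9.90 against 9.99 and 9.86. Over the 10 members the median change was 0.50 against 0.03 for all genes. A relative of the hydroxylases, the male-biased Cyp4a12a, went from a mean of 7.58 to 10.61 and was called (3.03, SE 0.30, adjusted p = 0.000182). Over all 24 arrays Cyp4a12a ran from 7.53 to 11.2 with a median of 10.4. The corn oil mean thus lay at the bottom of that range and the TCPOBOP mean near the median.

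The response to TCPOBOP differed between wild type and knockout for Acaa1b and the Cyp4a10 probe set when tested directly. The wild-type response minus the knockout response was -3.89 (SE 0.77, adjusted p = 0.0109, probe set fit) for the Cyp4a10 probe set and -1.78 (SE 0.34, adjusted p = 0.00847) for Acaa1b. Background shares were 0.665% of all genes lower and 0.623% of probe sets lower. Acot1 was at -2.28 (SE 0.55, adjusted p = 0.043), but it was above the dim limit on 0 of 8 wild-type arrays and entered the test through its higher arrays. Both sets shared by Acaa1b and Acaa1a also differed, at -1.54 (adjusted p = 0.00494) and -1.83 (adjusted p = 0.00664). Ehhadh was at -1.31 (SE 0.37, adjusted p = 0.0831), Acot3 at -1.59 (adjusted p = 0.292) and Cyp4a14 at -2.53 (SE 1.10, adjusted p = 0.348). Over the 10 members 8 were negative, with a median of -1.45 against -0.01.

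Acaa1b kept its call in 7 of 8 fits with 1 array left out and lost it without wild-type TCPOBOP replicate 2 (adjusted p = 0.0581). For the Cyp4a10 probe set it held in 5 of 8, with adjusted p of 0.0635, 0.069 and 0.075 without wild-type corn oil replicate 2, knockout corn oil replicate 1 and wild-type TCPOBOP replicate 2. Acot1 was under the threshold in 1 of 8, when knockout corn oil replicate 2 was left out, and otherwise had an adjusted p between 0.0849 and 0.22. Ehhadh passed only without knockout corn oil replicate 2 (-1.64, adjusted p = 0.0461). Of the other PPARalpha targets 13 of 63 were called lower in this test and 0 higher, led by Retsat (-2.37), Nudt7 (-1.90), Mgll (-1.67) and Ech1 (-1.48), a peroxisomal and mitochondrial isomerase. That count was 11 without wild-type corn oil replicate 1 and 9 without wild-type TCPOBOP replicate 1. It was 2 without wild-type corn oil replicate 2, knockout corn oil replicate 1 or wild-type TCPOBOP replicate 2, and 7, 4 and 3 without knockout corn oil replicate 2, TCPOBOP replicate 1 and TCPOBOP replicate 2. Ppara was called too, at -2.22 (SE 0.55, adjusted p = 0.0469).

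**Figure D2:**
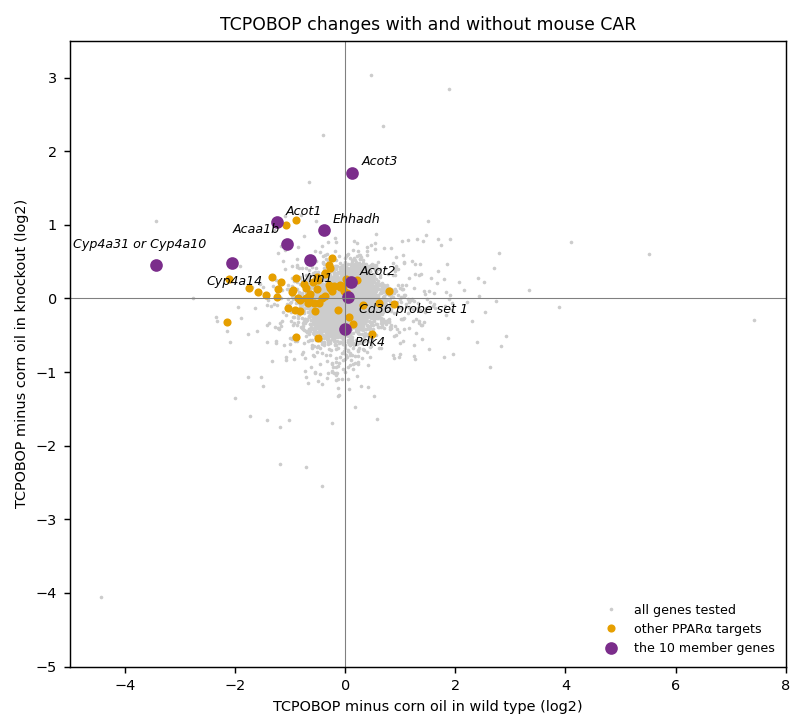
Log2 change after TCPOBOP in wild type (horizontal axis) and in knockout (vertical axis) for 9167 tested genes (grey), other PPARalpha targets (orange) and the 10 members (purple, including members too dim to be tested). The Cyp4a10 probe set lies at -3.43 and 0.46, Acaa1b at -1.05 and 0.74, and Acot1 at -1.24 and 1.04; both axes rest on groups of 2 mice.

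In human CAR mice TCPOBOP called 0 of the 7 tested members and 0 of 9167 genes (0%). At an unadjusted p under 0.05 limma gave 2 members lower and 0 higher, and 303 genes higher and 307 lower. Cyp4a14 read 8.49 and 6.75 on corn oil and 4.69 and 6.27 on TCPOBOP, so both treated mice lay below both controls (-2.14, SE 0.77, adjusted p = 0.656). For the Cyp4a10 probe set the values were 9.35 and 9.61 against 7.57 and 9.22 (-1.08, adjusted p = 0.744). Acaa1b went the other way, 11.26 and 11.49 against 11.78 and 11.85 (0.44, adjusted p = 0.767). Its response in wild type differed from that in human CAR mice by -1.49 (SE 0.34, adjusted p = 0.0314), the 1 member called, beside 0.644% of all genes called lower. The shared Acaa1b and Acaa1a sets differed by -1.29 (adjusted p = 0.0175) and -1.44 (adjusted p = 0.0327), beside 0.677% of probe sets. Leaving out 1 array at a time, Acaa1b kept the call in 1 of 8 fits, without wild-type TCPOBOP replicate 1, and otherwise had an adjusted p between 0.0518 and 0.168. For Cyp4a14 the same difference was 0.09 (adjusted p = 0.992) and for the Cyp4a10 probe set -2.35 (adjusted p = 0.156), which passed without wild-type corn oil replicate 1 (-3.21, adjusted p = 0.0461). Of the other targets 11 of 63 were lower by this test, led by Cyp8b1 (-2.99) and Mgll (-2.11). With 1 array left out the count was 8 without wild-type corn oil replicate 1 and 6 without wild-type TCPOBOP replicate 1. It was 5 and 3 without human CAR corn oil replicates 2 and 1, 4 and 3 without human CAR TCPOBOP replicates 1 and 2, 2 without wild-type corn oil replicate 2 and 0 without wild-type TCPOBOP replicate 2.

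With phenobarbital no member was called in any of the 3 genotypes. The share of all genes called was 1.47% for the wild-type mice, 0.731% for the knockout mice and 0.665% for those with human CAR. These shares rest on few arrays: 67 genes in knockout and 61 in human CAR mice became 2 and 4 without the 2 arrays that stood apart, which belong to these groups, while 135 in wild type became 246. With 1 array left out at a time the numbers ran from 0 to 933 in knockout, 0 to 1311 in human CAR and 19 to 59 in wild-type mice. No member was called in knockout or human CAR mice in any of these fits. Unadjusted, limma gave 1 member higher in wild type, 2 lower in knockout and 1 higher in human CAR mice. Vnn1 had the largest change each time. In wild type it read 4.81 and 7.04 on corn oil and 7.06 and 7.54 on phenobarbital (1.38, SE 0.53, adjusted p = 0.261), and without corn oil replicate 2 the change was 2.49 and passed (adjusted p = 0.0253). In human CAR mice it read 5.58 and 6.24 against 7.09 and 7.88 (1.58, adjusted p = 0.127). In knockout mice the values ran downward, 7.15 and 7.83 against 5.98 and 6.26 (-1.36, adjusted p = 0.168). None of these 3 comparisons passed. The groups did not overlap, but in wild type only by 7.04 on corn oil against 7.06 on phenobarbital. Groups of 2 mice can separate without any effect of treatment. The difference between the wild-type and knockout responses of Vnn1 was 2.74 (adjusted p = 0.225), with 0.153% of all genes and 0 members called in that test and 2 members higher unadjusted. Without wild-type corn oil replicate 2 it had 1 member called.

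The fatty acid hydroxylases were highest in human CAR mice on phenobarbital among the human CAR groups. On corn oil the Cyp4a10 probe set read 9.35 and 9.61 and on phenobarbital 10.58 and 11.12 (1.37, adjusted p = 0.183, probe set fit). Cyp4a14 read 8.49 and 6.75 against 8.27 and 9.37 (1.20, adjusted p = 0.371). Pdk4 read 5.98 on human CAR phenobarbital replicate 1, an array that stood apart, and 3.23 to 3.99 on the other 23. In wild type on phenobarbital the Cyp4a10 probe set read 9.31 and 8.73, inside its range on corn oil, and Acaa1b 11.66 and 11.21, around its corn oil values. Ppara changed by -0.61 (adjusted p = 0.521) there and by -1.55 (adjusted p = 0.0607) in human CAR mice, while Rxra fell by 0.86 (adjusted p = 0.00583) in wild type. None of 63 other targets was called with phenobarbital in any genotype with all arrays. Without the 2 arrays that stood apart 2 were lower and 1 higher in wild type. In knockout mice 9 were lower and 2 higher without phenobarbital replicate 1, and in human CAR mice 15 were lower without phenobarbital replicate 2 and 1 without corn oil replicate 2. In the fits behind the counts of 9 and 15, an array that stood apart was the only phenobarbital array left in its group.

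In wild type Acaa1b and the Cyp4a10 probe set were lower on TCPOBOP than on phenobarbital at the doses given. Acaa1b was lower by 1.10 (SE 0.24, adjusted p = 0.03) and the Cyp4a10 probe set differed by -3.46 (SE 0.54, adjusted p = 0.00224, probe set fit). That was 1 member in the gene fit, beside 0.415% of all genes lower and 0.413% of probe sets lower. Cyp4a14 was at -3.13 (SE 0.77, adjusted p = 0.0605), from 6.98 and 6.67 on phenobarbital, and passed without the 2 arrays that stood apart (adjusted p = 0.042). Vnn1 was at -2.0 (adjusted p = 0.0853). All 10 members had a negative difference, with a median of -0.71 against 0.01 for all genes. The Acaa1b call was lost with any of the 4 arrays left out (adjusted p 0.0513 to 0.477). The Cyp4a10 call was lost without phenobarbital replicate 1 (adjusted p = 0.0686) or TCPOBOP replicate 2 (0.0535). Cyp2b10 did not separate these ligands (0.38, adjusted p = 0.854), with means of 12.36 on TCPOBOP and 11.97 on phenobarbital. This comparison and that with corn oil share the TCPOBOP arrays.

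None of the 7 tested members was called with CITCO in any genotype, beside 0.0327% of all genes in wild type and in knockout and 0.0873% in human CAR mice. In knockout the 3 genes called became 39 without the 2 arrays that stood apart. Unadjusted, limma gave 0 members in wild type, 2 lower in knockout and 0 in human CAR mice. In human CAR mice, whose receptor CITCO binds, Cyp4a14 read 7.30 and 5.86 against 8.49 and 6.75 on corn oil (-1.04) and Acaa1b 11.67 and 11.40 against 11.26 and 11.49. Cyp2b10 averaged 11.53 there against 8.52 on corn oil. CITCO also raised Cyp2b10 in wild type, from a mean of 4.94 to 8.17 (3.23, SE 0.38, adjusted p = 0.00226, limma). The response in human CAR mice minus that in wild type was -0.22 (adjusted p = 0.935). The largest change of a member was in knockout mice, where Vnn1 read 5.74 and 5.32 on CITCO and 7.15 and 7.83 on corn oil (-1.96, SE 0.53, adjusted p = 0.236). Cd36 read 5.68 and 5.37 there, against 6.49 and 6.33 (-0.88, adjusted p = 0.444). The CITCO response of Vnn1 differed between human CAR and knockout mice by 2.58 (adjusted p = 0.414, probe set fit). The other differences between genotypes in the responses to phenobarbital and CITCO held no call either: 0 members for phenobarbital in wild type against human CAR (0.164% of all genes; 0 unadjusted) and in human CAR against knockout (0.0109%; 1 higher unadjusted), and 0 for CITCO in human CAR against knockout (0.0327%; 1 higher unadjusted) and against wild type (0%; 0 unadjusted, with 431 genes higher and 432 lower by limma at an unadjusted p under 0.05).

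Cd36 and Vnn1 share a pattern within the knockout mice: high on corn oil and TCPOBOP and lower on phenobarbital and CITCO. Cd36 read 6.49 and 6.33 on corn oil, 6.47 and 6.39 on TCPOBOP, 5.70 and 5.15 on phenobarbital and 5.68 and 5.37 on CITCO. Vnn1 read 8.05 and 7.97 on TCPOBOP, against 5.32 to 6.26 on phenobarbital and CITCO. Cd36 is also made by macrophages, endothelium and fat. The summed linear level of 12 Kupffer cell markers was 4470 and 3760 on knockout corn oil arrays, 2450 and 1360 on phenobarbital, 2400 and 2570 on CITCO and 2720 and 1750 on TCPOBOP, with 11 or 12 markers above the dim limit on every array. Of the 12, 5 were called lower with phenobarbital in knockout mice, beside 0.545% of all genes. The lowest sum, 1360, belongs to phenobarbital replicate 2, an array that stood apart. The limits given above for the calls of that comparison hold here too. The part of Kupffer cells in the Cd36 values was not tested. Of 7 adipocyte markers, 3 or 4 were above the limit on every array. Retn, Pck1 and Car3 were above it on all 24 and Fabp4 on 18, while Adipoq, Lep and Cidea were below it on all. The summed linear level was 1590 to 5740 and rested mainly on Pck1 and Car3, with medians of 10.38 and 11.43. The other markers had medians of 6.14 or lower, so the sum cannot be read as an amount of adipocytes. The part of adipocytes in the Cd36 values was not tested.

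**Figure D3:**
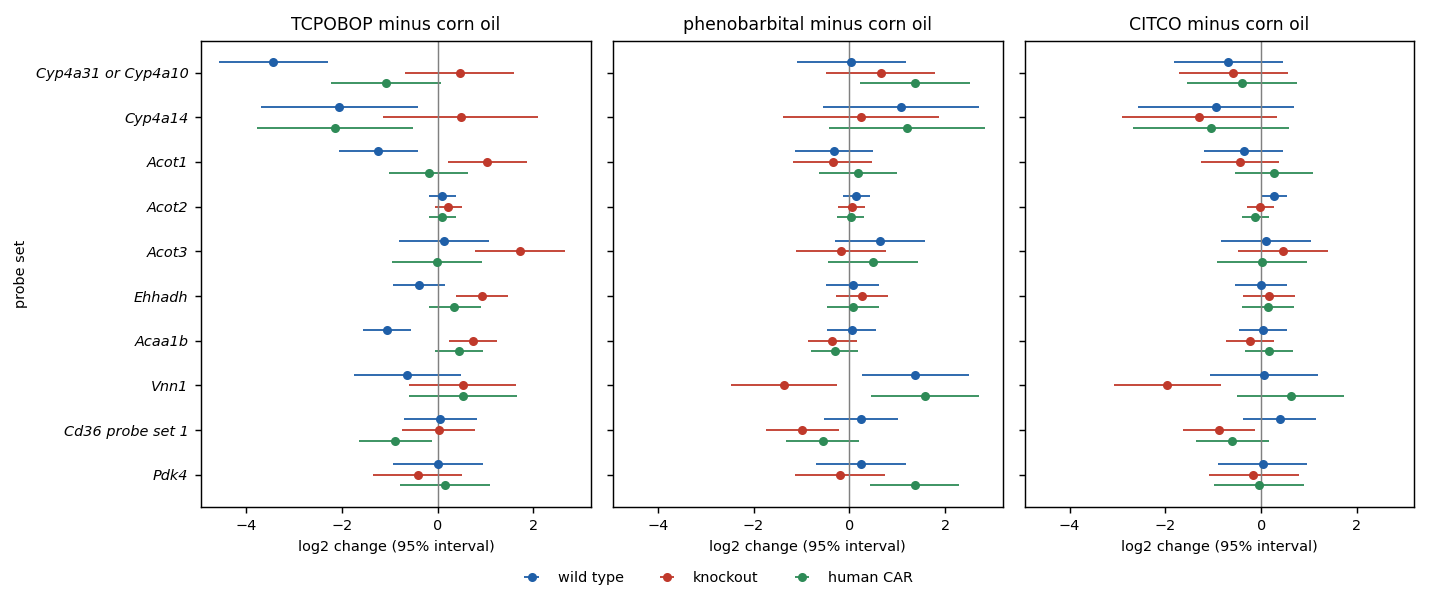
Log2 change against corn oil (horizontal axis, with 95% intervals of the limma fit without a dim filter) for the 10 members (rows), by ligand (panels) and genotype (colours). In the TCPOBOP panel the wild-type points of the Cyp4a10 probe set (-3.43), Acot1 (-1.24) and Acaa1b (-1.05) lie to the left of 0 and the knockout points (0.46, 1.04 and 0.74) to the right; in the CITCO panel Vnn1 in knockout stands at -1.96.

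Without any ligand, Cyp4a14 was the member in which knockout and wild-type livers were farthest apart, but the difference did not pass. On corn oil it read 9.0 and 9.90 in knockout and 4.38 and 7.12 in wild type, without overlap (3.70, SE 0.77, adjusted p = 0.0807), although the lower wild-type value was dim. None of the 7 tested members was called, beside 0.229% of all genes, and unadjusted limma gave 3 higher and 0 lower. Cyp4a10, by its shared set, differed by 1.99 (adjusted p = 0.311, probe set fit). Cd36 differed by 1.20 (adjusted p = 0.396) and Vnn1 by 1.56 (adjusted p = 0.509). Without wild-type corn oil replicate 2, the mouse with the higher values, Cyp4a14 (5.07, adjusted p = 0.013) and Vnn1 (2.68, adjusted p = 0.028) passed. Human CAR mice lay between, with Cyp4a14 at 8.49 and 6.75. In human CAR against wild type 0 members were called (0.0545% of all genes; unadjusted 1 higher), and against knockout 0 (0.120%; unadjusted 2 lower).

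The genotypes were also compared over all 4 treatments, 8 arrays against 8, a comparison chosen after these values had been seen and therefore a description of a pattern rather than independent support. Cyp4a14 lay between 7.53 and 10.02 on the 8 knockout arrays (median 9.62) and between 3.62 and 7.12 on the 8 wild-type arrays (median 4.81), without overlap. The mean log2 difference was 4.04 (SE 0.39, adjusted p = 6.01e-06). No fold is given, since only 3 of the 8 wild-type values, but all 8 in knockout, were above the dim limit. For the Cyp4a10 probe set the lowest, median and highest values were 9.82, 11.32 and 11.72 in knockout and 5.17, 8.30 and 9.85 in wild type, so the ranges met at 1 array each. It differed by 3.14 (SE 0.27, 8.79-fold, adjusted p = 2.24e-06, probe set fit). Acot3 (1.01, SE 0.22, adjusted p = 0.0114) and Ehhadh (0.53, SE 0.13, adjusted p = 0.0211) were also higher in knockout. Background shares were 3.12% of all genes higher and 3.03% of probe sets higher. Acot1 was at 0.70 (SE 0.20, adjusted p = 0.0453), with the limit of the dim filter given above, and at an adjusted p of 0.0517 without that filter.

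Not all members took part equally. Acaa1b (0.25, adjusted p = 0.275), Vnn1 (0.66, adjusted p = 0.182) and Cd36 (0.57, adjusted p = 0.0813) did not pass, although all 10 members were above 0 (median 0.61 against 0.01). Acot3 owes its difference largely to 3 knockout arrays, CITCO replicate 2 (6.98) and both TCPOBOP arrays, and lay between 5.11 and 5.90 on the other 5. For Ehhadh the genotypes were farthest apart on TCPOBOP, with means of 8.49 in knockout and 7.07 in wild type. Its means in the same order were 7.57 and 7.46 on corn oil, 7.83 and 7.53 on phenobarbital and 7.73 and 7.46 on CITCO. Cyp4a14, the Cyp4a10 probe set and Acot3 kept their calls in all 16 fits with 1 array left out and Ehhadh in 9. Ehhadh lost it without wild-type phenobarbital replicate 1, corn oil replicate 1, CITCO replicate 2 or TCPOBOP replicate 2 and without replicate 2 of knockout corn oil, CITCO or TCPOBOP (adjusted p 0.0501 to 0.0639). Acot1 was under the threshold in 4 of the 16. Vnn1 passed without wild-type corn oil replicate 2 (0.94, adjusted p = 0.0109) and Acaa1b without knockout corn oil replicate 1 (0.37, adjusted p = 0.0343). Of the other targets 12 of 63 were higher and 1 lower, led by Retsat (1.13), Plin5 (0.79), a coat protein of lipid droplets, and Ech1 (0.65), with lipoprotein lipase, Lpl, lower by 0.85. Of the relatives Acot4 (0.62) and Vnn3 (0.54) were higher and Cyp4a12a was lower (-1.44). Ppara was at 0.07 (adjusted p = 0.91).

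Averaged over the 4 treatments, human CAR mice were intermediate for both hydroxylases. Cyp4a14 had a lowest, median and highest value of 4.69, 7.03 and 9.37 on the 8 human CAR arrays. It exceeded wild type by 1.86 (SE 0.39, adjusted p = 0.0156) and lay below knockout by a log2 difference of -2.19 (SE 0.39, adjusted p = 0.0152). The Cyp4a10 probe set, at 7.57, 9.42 and 11.12, differed by 1.49 (SE 0.27, adjusted p = 0.00626) and -1.65 (SE 0.27, adjusted p = 0.0113) in the probe set fit. In these comparisons 1 member of the gene fit was called each time, beside 1.15% of all genes higher than wild type and 0.109% lower than knockout. In the probe set fit 1.21% and 0.0813% were called these ways. Without the 2 arrays that stood apart the differences from knockout were -1.97 (adjusted p = 0.0748) and -1.55 (adjusted p = 0.0564) and no longer passed. With 1 array left out at a time, Cyp4a14 lost the call against knockout in 4 of 16 fits (knockout CITCO replicate 2, human CAR CITCO replicate 2, knockout corn oil replicate 2 and knockout TCPOBOP replicate 1; adjusted p 0.0559 to 0.0577). The Cyp4a10 probe set was not between the genotypes on every treatment. On corn oil its human CAR values (9.35 and 9.61) lay inside the wild-type values (8.12 and 9.85). Human CAR and wild-type means were farthest apart on TCPOBOP, at 8.40 and 5.56.

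In some groups the 2 mice differed across many members at once. In wild type on corn oil 9 of 10 members were higher in replicate 2, with differences of 2.73 for Cyp4a14, 2.23 for Vnn1 and 1.73 for the Cyp4a10 probe set. The same held for 9 of 10 in knockout on corn oil, 8 of 10 in knockout on CITCO, where Acot3 differed by 1.71, and 9 of 10 in human CAR on TCPOBOP. The other groups split 7 to 3 or more evenly, with 5 and 5 in human CAR on corn oil. Over all genes 41.2% to 62.2% were higher in replicate 1, and the median difference between mice of a group was 0.1 to 0.21. The median over the members was 0.1 in wild type on CITCO and 0.13 in knockout on TCPOBOP. On corn oil it was 0.43 in wild type and 0.60 in knockout. Since corn oil arrays are the controls of all ligand comparisons of a genotype, those comparisons share this spread.

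**Figure D4:**
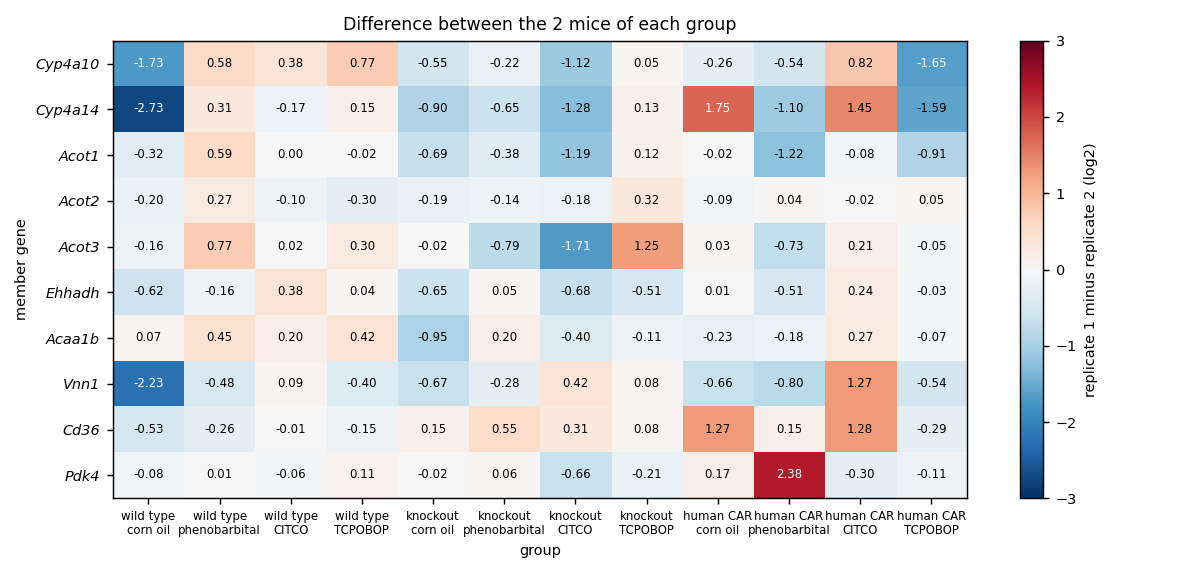
Replicate 1 minus replicate 2 (log2, colour and printed value) for each member (rows) in each group (columns). Blue marks members higher in replicate 2, which fills most of the columns of wild type on corn oil (9 of 10 members), knockout on corn oil (9 of 10) and human CAR on TCPOBOP (9 of 10); the largest difference is -2.73, for Cyp4a14.

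Beyond the lists, the genes whose 12 standardised group means were most like the members' mean were Acadm, a mitochondrial acyl-CoA dehydrogenase (root mean square difference 0.47 over 12 groups), Hemk1 (0.48), Aldh2, the mitochondrial aldehyde dehydrogenase (0.53), Tnks1bp1 (0.53), Hsd17b6 (0.57), Bckdhb (0.58), Pigr (0.60) and Amdhd1 (0.60). The median of all genes was 1.35. The members themselves were at 0.44 (Acot1) to 1.14 (Pdk4) from their own mean, of which each is a part.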

How the data were processed

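RNA of 1 liver per array was extracted with Trizol and labelled with biotin, per the labels. The authors deposited log2 values made with RMA in R 2.15.0, per the submitters' processing notes; the sources used here give no probe annotation build. The table had no missing value, ran from 2.03 to 14.1 with array medians of 5.41 to 5.51, and was not normalised further. Of its 22690 probe sets, 64 were controls, 20380 had 1 gene symbol in the platform annotation, 691 several and 1555 none listed. The number of per-sample columns left unused was 0. No arrays were copies: over 276 pairs at most 0.0485% of values were equal.

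Each of 12393 genes was read by its brightest probe set of 1 symbol. A model of 12 group means was fitted to the 24 arrays with limma 3.58.1 (R 4.3.3; 12 residual degrees of freedom), for 9167 genes above the 40th percentile of the array on at least 2 arrays, and again for 14763 probe sets, shared ones included, a step added after Cyp4a10 was found to have a shared set only. The 20 comparisons set a ligand against corn oil (9), the responses of genotypes (7), genotypes on corn oil (3) or TCPOBOP with phenobarbital (1), with 3 more of genotypes over all treatments added after seeing values. P-values were adjusted by Benjamini-Hochberg within a comparison, with a threshold of 0.05. Medians over all 10 members come from a fit without the dim filter. The members and lists were chosen with earlier results of these data known. All members were tested or read in every comparison, with the count called given for each and the values of only some members. Also named were up to 4 called genes of a list and the 8 genes most like the members. Ppara, Rxra, Nr1i3 and Cyp2b10 were chosen whatever their p. Cyp4a12a and Cpt1a fall under the list rule. Genes of fixed interest were grouped as other PPARalpha targets, relatives of the members, receptor and partners, fasting and feeding genes, drug metabolism genes, lipid uptake and storage genes, circadian genes and cell markers. The fits were tested on simulated data. Alternatives were quantile and cyclic loess normalisation, other dim filters, other ways to read a gene, a trended robust prior, the replicate number as a block, fewer arrays and each array left out. Figures were drawn with matplotlib 3.10.9 (Python 3.11.15, pandas 2.3.3, numpy 2.4.6). The number of arrays, 2 a group, limits the precision of every value.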

Additional observations from a re-analysis of the deposited data

Results flagged for a closer look

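The response to TCPOBOP differed between genotypes for the Cyp4a10 probe set and Acaa1b in limma's test of the difference itself. Wild type minus knockout was -3.89 for the Cyp4a10 probe set (SE 0.77, adjusted p = 0.0109, probe set fit) and -1.78 for Acaa1b (SE 0.34, adjusted p = 0.00847), each lower in wild type and higher in knockout by its group means. Acot1 was at -2.28 (SE 0.55, adjusted p = 0.043), but it passed the dim filter through 3 knockout arrays and 1 human CAR array and 0 of 8 wild-type arrays, so this value is no independent support. Wild type minus human CAR was -1.49 for Acaa1b (SE 0.34, adjusted p = 0.0314). No explanation of these differences was tested.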

How the results depend on the processing

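Over 286 values of single members under settings other than leaving out an array, 270 kept their side of the threshold, 10 gained a call and 6 lost it, and none changed direction where called. With 1 array left out, 254 values kept their side, 12 gained a call and 50 lost it. These tallies cover only members called in a comparison under at least 1 setting. A value that was uncalled both ways counts as kept. Members called with TCPOBOP in wild type were 1, and 2 with the replicate number as a block, without the 2 arrays that stood apart, with own genotypes only and with every probe set, shared ones included. Replicate numbers did not pair the samples (66 group pairs, median correlation 0.03, from -0.45 to 0.42); with the block Acot1 also passed (adjusted p = 0.0418, limma). For TCPOBOP against phenobarbital in wild type the count was 1, and 2 without the 2 arrays or with shared sets and 3 with own genotypes only. For the TCPOBOP difference between wild type and knockout it was 2, Acot1 counted, and 1 with the stricter dim filter or the trended robust prior. With own genotypes only, CITCO in knockout gave 1 in place of 0 (Vnn1, adjusted p = 0.0488) and knockout against wild type on corn oil 2 in place of 0. Over the 4 treatments, human CAR against wild type gave 1, and 2 with shared sets, and human CAR against knockout 1, with 0 under the trended robust prior or without the 2 arrays and 2 with shared sets. Acot1 between knockout and wild type over the treatments lost its call without a dim filter (adjusted p = 0.0517) or with that prior (0.067).

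With 1 array left out, counts ran from 0 to 1 for TCPOBOP in wild type, 0 to 0 against phenobarbital, 0 to 3 for wild type against knockout responses and 0 to 1 for wild type against human CAR responses. They ran from 0 to 2 for knockout against wild type on corn oil, 0 to 1 for phenobarbital in wild type and for its difference from knockout, and, over the treatments, 2 to 5 for knockout against wild type and 0 to 2 for human CAR against knockout. All genes called with TCPOBOP in wild type were 563, against 884 without the 2 arrays that stood apart, 1065 with own genotypes only and 265 to 315 with 1 array left out. The counts of members called include Acot1, although its differences from wild type are not counted as results. The 2 mice a group and the dim values of Acot1, Acot2 and Pdk4 limit what can be seen.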

Other observations

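Lpin1 and Nrip1, genes that work with PPARalpha, were called with phenobarbital in wild type, where no member was called and 1.47% of all genes were. Both had an adjusted p close to the threshold of 0.05. Lpin1, a phosphatidate phosphatase that also acts as a coactivator of PPARalpha, fell by 2.61 (SE 0.60, adjusted p = 0.0414, limma), from a mean of 8.54 on corn oil to 5.94, and Nrip1 rose by 0.65 (SE 0.15, adjusted p = 0.0458), close to its rise with TCPOBOP of 0.69. Drug metabolism genes of CAR and PXR moved with both ligands: 10 of 14 tested rose with phenobarbital and 10 of 14 with TCPOBOP in wild type. Of 9 tested genes of lipid uptake and storage other than the members, 0 were called with either ligand in wild type. Of 14 tested circadian genes, 1 was called with TCPOBOP in knockout mice, Usp2, which rose by 1.12 (adjusted p = 0.0449), and 0 in wild type.

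Over the 4 treatments, a comparison chosen after values had been seen, the Lpin1 means were 8.52 in knockout and 7.11 in wild type. The difference was 1.41 (SE 0.30, adjusted p = 0.00929, limma). It is not separate from the fall described above, since the wild-type mean includes the phenobarbital arrays. The wild-type corn oil mean given above was close to the knockout mean. Med1, a coactivator subunit, was higher in human CAR than in wild-type mice by 0.29 (SE 0.07, adjusted p = 0.0243).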
